A study of Danio rerio with 6 samples.

Results

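The transcripts described here belong to the tumour necrosis factor (TNF) superfamily and its signalling: the 4 ligands tnfa, LTA, FASLG and CD40LG, the 2 receptors CD40 and TNFRSF21, and the adaptor TRADD. They were chosen by the symbol of their well on a PCR array plate and make up 7 of the 326 genes on that plate. RNA came from whole zebrafish embryos at 24 hours post fertilization that had received a plasmid carrying NOD1, ptGFP1-NOD1 (the NOD1 group), or ptGFP1 with no insert (control), so both groups carried the ptGFP1 backbone. Each group had 3 biological replicates with 1 plate each, and 150 to 200 embryos on average were pooled for extraction. The sources used here do not give the promoter of the plasmids. NOD1 is an intracellular sensor of bacterial peptidoglycan fragments.

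TNF superfamily ligands are trimeric proteins of the cell surface, some of which are also released, and they signal by clustering receptors on other cells or on the same cell. Receptors with a death domain pass the signal to adaptors such as TRADD and FADD, which lead either to NF-kB and JNK activity through RIPK1 and TRAF proteins or to caspase-8 and cell death. Receptors without a death domain, CD40 among them, bind TRAF proteins directly. In mammals tnfa, LTA and FASLG come largely from activated immune cells and CD40LG mainly from activated T cells, and in zebrafish lymphocytes appear only later than the stage sampled here.

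Of the 7 symbols, 6 matched a current zebrafish gene by accession and FASLG matched by symbol (RefSeq, assembly GRCz12tu). The wells are tnfa on chromosome 19, LTA (lta, with the synonym TNF-N) on chromosome 15, FASLG (faslg) on chromosome 20, CD40LG (cd40lg) on chromosome 14, CD40 (cd40) on chromosome 23, TNFRSF21 (tnfrsf21) on chromosome 20 and TRADD (tradd) on chromosome 7. LTA has a close relative on the plate, tnfb, which also lies on chromosome 15 with 1 annotated gene wholly between them.

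Each well gave a threshold cycle (Ct), the cycle at which SYBR Green fluorescence crosses a threshold, so that a lower Ct means more template. To give each gene a level, its Ct was subtracted from the average Ct of the 3 reference genes ACTB, GAPDH and Tuba1 of the same plate. This is a log2-like scale on which 1 unit is about a 2-fold difference, higher means more transcript, and levels of different genes cannot be compared, since assay efficiencies are unknown. Groups were compared with limma over all 319 genes kept, and a gene passed at a Benjamini-Hochberg adjusted p under 0.05. All 7 genes were kept, with a Ct under 35 in every plate. As a check of the labels, nod1 itself had levels of -3.20, -1.49 and -2.26 in NOD1 plates, against -10.81, -10.94 and -10.97 in control plates. The mean Ct of the reference genes was 18.2, 18.4 and 18.2 in NOD1 plates and 17.6, 17.8 and 17.5 in control plates. The 18S rRNA well, which was not among the 3 reference genes, crossed at a mean Ct of 9.82 ± 0.16 in NOD1 plates, against 7.21 ± 0.059 in control plates (SD, n = 3 each), so it moved with the group by more than the reference genes did. Its part in the results was not tested. Values with 18S rRNA added to the reference genes are given where the call of one of the 7 genes changes with it. For other genes that did not pass, such values are not given gene by gene, and some of them passed with 18S rRNA added. The NOD1 plates were all run on 1 later day, while control replicate 1 was run on one earlier day and control replicates 2 and 3 on another, so run day and group cannot be told apart. Nothing in the labels says that replicates came from separate spawnings, so p-values measure only the spread between these plates.

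Relative to the 3 reference genes, every ligand was higher in every NOD1 plate than in every control plate. Both receptors were lower in the same way. For CD40LG this rested on the scaling, since its raw Ct overlapped between the groups. Of the 4 ligands, tnfa, LTA and FASLG rose and CD40LG did not pass, whereas both receptors fell, and TRADD did not pass. The TNFRSF21 call was close to the threshold (limma adjusted p = 0.0467). It held in only 1 of the 6 fits with a plate left out, and that of CD40 held in all 6. Among all 319 genes, 52.4% passed, 37.0% as higher and 15.4% as lower. At these relative levels the groups did not overlap for any of the 7 genes, with 5 higher and 2 lower in NOD1. Of all genes kept, 42.3% were higher without overlap and 21.6% lower. The median difference, NOD1 minus control, was 2.47 on the log2 scale over the 4 ligands and -0.86 over the 2 receptors, beside 0.32 over all genes kept. In these pooled whole embryos, more cells that express a gene and more transcript per cell cannot be told apart.

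**Figure D1:**
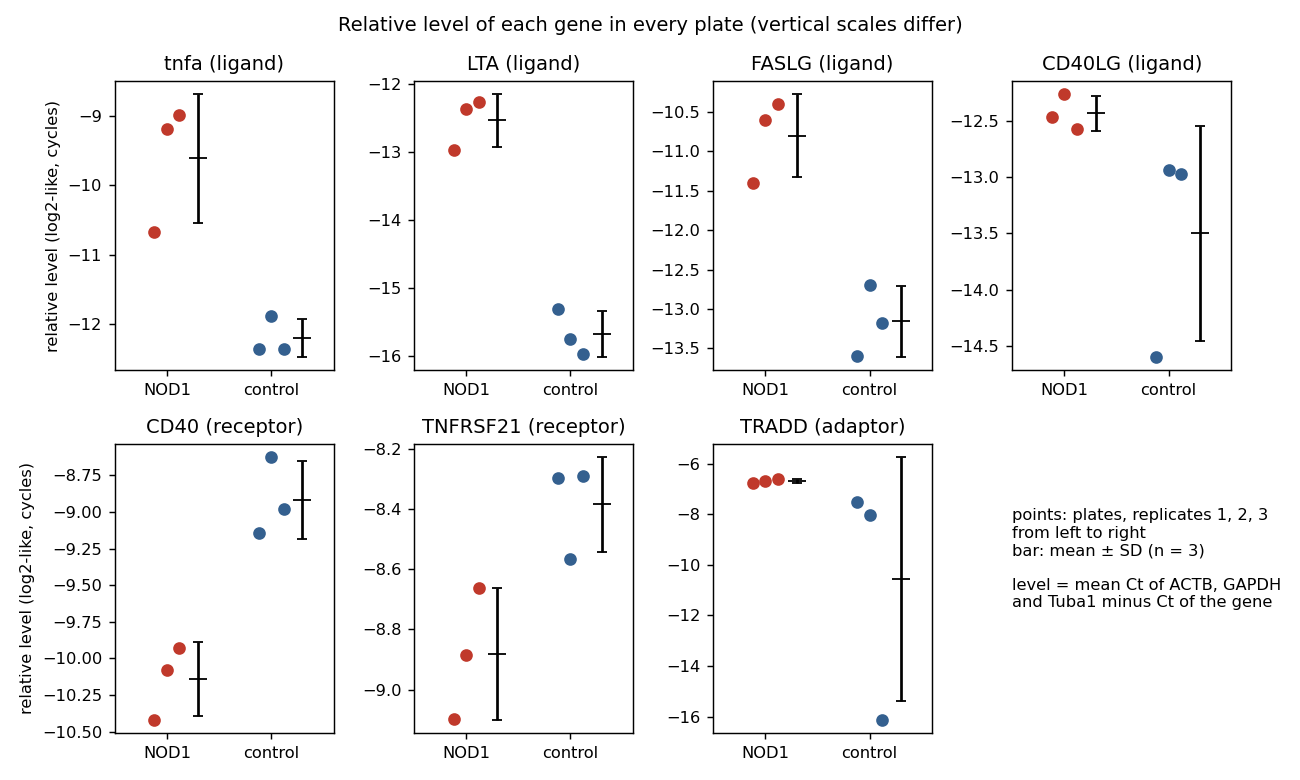
Relative level (log2-like, in cycles, vertical axes differing between panels) of the 7 genes in the 3 NOD1 plates and the 3 control plates, with the mean ± SD of each group beside the points. The groups do not overlap in any panel, tnfa, LTA, FASLG, CD40LG and TRADD being higher and CD40 and TNFRSF21 lower in NOD1, with control replicate 3 of TRADD at -16.13 and control replicate 1 of CD40LG at -14.60 far from the other control plates.

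LTA, named for lymphotoxin alpha, which in mammals is a soluble TNF-like cytokine, had the highest difference of the 4 ligands with the 3 reference genes. Of the 10 other scalings only quantile and cyclic loess could change that order, since the rest add the same amount to every gene. LTA was above tnfa with quantile scaling (1.74 against 1.48) and below it with cyclic loess (1.44 against 1.49). The difference between tnfa and LTA was not tested. The Ct of LTA was 31.2, 30.8 and 30.5 in NOD1 plates, against 32.9, 33.5 and 33.5 in control plates. The level was -12.98, -12.37 and -12.26 in NOD1 plates, against -15.30, -15.74 and -15.97 in control plates. The NOD1 plates lay close together and more than 2 units above the highest control plate. The difference was 3.13 ± 0.27 (SE, n = 3 per group) on the log2 scale, an 8.77-fold rise (limma adjusted p = 0.000852), and it ranked 12 of 319 from the highest. It passed with every plate left out in turn (2.98 to 3.35) and under all 10 other scalings, although its size fell to 1.74 with quantile and 1.44 with cyclic loess scaling. All control wells were late, so that the control level rests on little template.

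The proinflammatory cytokine tnfa rose 6.04-fold. Its Ct was 28.9, 27.6 and 27.2 in NOD1 plates, against 30.0, 29.6 and 29.8 in control plates. The level was -10.68, -9.18 and -8.98 in NOD1 plates, against -12.37, -11.89 and -12.36 in control plates. NOD1 replicate 1 lay 1.70 units below the highest NOD1 plate and was the closest to control, at 1.21 units from the nearest control plate. The difference was 2.59 ± 0.48 (SE, n = 3 per group; limma adjusted p = 0.00719), and it was 3.13 without NOD1 replicate 1. With quantile scaling the difference was 1.48 and did not pass (limma adjusted p = 0.0839), and with cyclic loess it was 1.49 (adjusted p = 0.0397).

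FASLG encodes the Fas ligand, a membrane protein that induces apoptosis in cells bearing FAS. Its Ct was 29.6, 29.0 and 28.6 in NOD1 plates, against 31.2, 30.5 and 30.7 in control plates. The level was -11.40, -10.60 and -10.41 in NOD1 plates, against -13.60, -12.70 and -13.17 in control plates. The plates of a group differed by up to 1 unit, less than the distance between the groups. The rise was 2.36 ± 0.35 (SE, n = 3 per group), or 5.12-fold (limma adjusted p = 0.00351). It passed under all 10 other scalings, at 1.08 with quantile and 1.07 with cyclic loess scaling. Of the 7 genes, 6 had their lowest NOD1 level in NOD1 replicate 1, the exception being CD40LG, and so had 194 of all 319 genes (60.8%), so that a low NOD1 replicate 1 was common on the plate.

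CD40LG, the ligand of CD40, did not pass the threshold. Its Ct was 30.7, 30.7 and 30.8 in NOD1 plates, against 32.2, 30.7 and 30.5 in control plates. The level was -12.47, -12.27 and -12.57 in NOD1 plates, against -14.60, -12.94 and -12.97 in control plates. Control replicate 1 lay 1.64 cycles later than the mean of the other control wells for this gene, while 3 of the 4 wells around it on that plate (TBK1, MAPK8 and FADD) differed by 0.15 cycles or less and the fourth, FASLG, by 0.66. The difference was 1.06 ± 0.47 (SE, n = 3 per group; 95% confidence interval -0.11 to 2.23; limma adjusted p = 0.112), which shrank to 0.51 when control replicate 1 was left out (adjusted p = 0.0597). On raw Ct the NOD1 wells were earlier by only 0.409 cycles, less than the 0.655 cycles by which the reference genes were later. The difference was -0.27 with quantile and -0.44 with cyclic loess scaling (adjusted p = 0.518 and 0.426), and it passed with 18S rRNA added to the reference genes, at 1.55 (adjusted p = 0.0289).

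CD40, the receptor of CD40LG, fell. It is a costimulatory receptor of antigen-presenting cells that signals through TRAF proteins. Its Ct was 28.6, 28.5 and 28.1 in NOD1 plates, against 26.8, 26.4 and 26.5 in control plates. The level was -10.42, -10.08 and -9.93 in NOD1 plates, against -9.15, -8.62 and -8.98 in control plates. Every NOD1 plate was below every control plate by at least 0.78 units. The difference was -1.22 ± 0.20 (SE, n = 3 per group; limma adjusted p = 0.00480), so that control was 2.34-fold higher, and it ranked 10 of 319 from the lowest. It passed with every plate left out in turn (-1.34 to -1.08) and under all 10 other scalings, at -0.74 with 18S rRNA added to the reference genes, -1.83 with the global mean, -1.88 on raw Ct, -1.98 with cyclic loess and -2.14 with quantile scaling.

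TNFRSF21, also known as death receptor 6, carries a death domain and in mammals acts in neurons and in lymphocyte responses. Its Ct was 27.3, 27.3 and 26.9 in NOD1 plates, against 25.9, 26.3 and 25.8 in control plates. The level was -9.10, -8.88 and -8.66 in NOD1 plates, against -8.30, -8.57 and -8.29 in control plates. The closest plates of the groups, NOD1 replicate 3 and control replicate 2, were 0.094 units apart. The difference was -0.50 ± 0.16 on the log2 scale (SE, n = 3 per group; limma adjusted p = 0.0467), close to the threshold, and control was 1.41-fold higher. The call was lost without NOD1 replicate 1 or 2 or without any of the 3 control plates (adjusted p = 0.0504 to 0.137). It was also lost with B2M added (-0.38, adjusted p = 0.124), with 18S rRNA added (-0.010, adjusted p = 0.949), with GAPDH alone (-0.29, adjusted p = 0.240) and with Tuba1 alone (-0.53, adjusted p = 0.0515), and the difference was -1.11 with the global mean, -1.07 with quantile, -0.97 with the global median and -1.15 on raw Ct.

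TRADD binds the death domain of TNFRSF1A and gathers RIPK1 and TRAF2 there, the step from which NF-kB activity or cell death follows. Its Ct was 25.0, 25.1 and 24.8 in NOD1 plates, against 25.1, 25.8 and 33.6 in control plates. The level was -6.77, -6.70 and -6.59 in NOD1 plates, against -7.53, -8.02 and -16.13 in control plates. The NOD1 plates and control replicates 1 and 2 lay within 1.5 units of each other, and control replicate 3 was far below them. The difference was 3.87 ± 2.32 (SE, n = 3 per group; 95% confidence interval -1.87 to 9.62) and missed the threshold (limma adjusted p = 0.207). It passed once control replicate 3 was left out, at 1.09 or 2.12-fold (adjusted p = 0.0152). In control replicate 3 the 4 wells around TRADD (TNFRSF21, CFLAR, tnfa and BIRC4) were 0.588 cycles earlier to 0.029 cycles later than the mean of the other control plates, against 8.15 cycles later for TRADD. Single wells more than 5 cycles later than both other plates of their group occurred for 6 of the 319 genes kept, TRADD among them. Of these wells 2 were in NOD1 replicate 3, 2 in control replicate 2 and 1 each in control replicates 1 and 3. The 1 in control replicate 3 was TRADD itself. The cause of the late well was not tested.

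**Figure D2:**
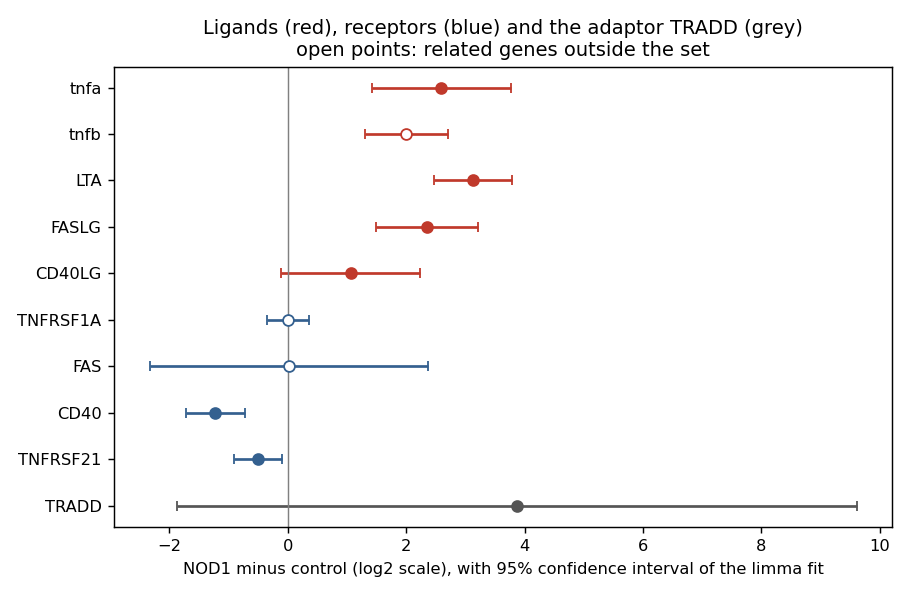
Difference of NOD1 minus control on the log2 scale with its 95% confidence interval from the limma fit, for the ligands (red), the receptors (blue) and TRADD (grey), filled points being the 7 genes and open points tnfb, TNFRSF1A and FAS. The intervals of tnfa, LTA, FASLG and tnfb lie above 0 and those of CD40 and TNFRSF21 below it, while those of CD40LG, TNFRSF1A, FAS and TRADD span 0.

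The plate held 3 further wells that complete the ligand and receptor pairs, of which TNFRSF1A and FAS were singled out after their values had been seen. The gene tnfb, the other zebrafish TNF gene, rose by 2.01 ± 0.28 (SE, n = 3 per group; limma adjusted p = 0.00297), with levels of -9.34, -9.35 and -8.92 in NOD1 plates, against -11.76, -10.81 and -11.05 in control plates. TNFRSF1A, the main signalling receptor of TNF, had levels of -6.12, -5.92 and -5.70 in NOD1 plates, against -5.91, -5.89 and -5.95 in control plates. Relative to the reference genes the groups overlapped, with a difference of 0.0045 ± 0.14 (95% confidence interval -0.35 to 0.36; limma adjusted p = 0.979). On raw Ct they did not overlap. The NOD1 wells of TNFRSF1A were later by 0.65 cycles, near the 0.655 cycles by which the reference genes were later. The absence of a difference for TNFRSF1A therefore rested on the scaling. FAS, the receptor of the Fas ligand, had levels of -14.61, -11.70 and -12.24 in NOD1 plates, against -14.19, -11.82 and -12.60 in control plates. Replicate 1 was the lowest plate for FAS in both groups, and the difference of 0.020 ± 0.95 had an interval of -2.33 to 2.37, so that sizeable changes in either direction were not detectable.

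Ligands and receptors were also set against each other within each plate, as the Ct of the receptor well minus the Ct of the ligand well, a difference that no reference gene enters. For CD40LG and CD40 it was -2.05, -2.19 and -2.65 cycles in NOD1 plates, against -5.45, -4.31 and -3.99 cycles in control plates. The distance between the wells was smaller in every NOD1 plate, by 2.29 cycles on average (two-sided exact permutation test, p = 0.1, which is the lowest value that 3 plates against 3 allow), and by 1.85 cycles without control replicate 1. For LTA and CD40 the values were -2.56, -2.29 and -2.33 cycles in NOD1 plates, against -6.15, -7.11 and -6.99 cycles in control plates. For tnfa and CD40 they were -0.259, 0.898 and 0.950 cycles in NOD1 plates, against -3.22, -3.27 and -3.38 cycles in control plates. All 8 combinations of a ligand with a receptor moved the same way without overlap, by 1.56 cycles (CD40LG with TNFRSF21) to 4.36 cycles (LTA with CD40). The levels given above already fixed this, since every ligand was higher and both receptors were lower without overlap. It is therefore no separate result, and neither is the permutation p of CD40LG with CD40. The sizes are the difference of the ligand minus that of the receptor. These combinations share wells, and among all 50721 pairs of kept genes 63.9% did not overlap between the groups. That share counts either direction, whereas the 8 combinations are counted in 1 direction. The ligands tnfa and LTA moved against TNFRSF1A by 2.59 and 3.13 cycles and FASLG against FAS by 2.33 cycles, without overlap. As TNFRSF1A and FAS differed by only 0.0045 and 0.020, these values nearly repeat the differences of the ligands and add nothing to them. Among the TNF genes themselves, tnfa against tnfb, LTA against tnfb and tnfa against LTA overlapped between the groups, with differences of 0.588, 1.13 and -0.538 cycles, which were not tested.

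**Figure D3:**
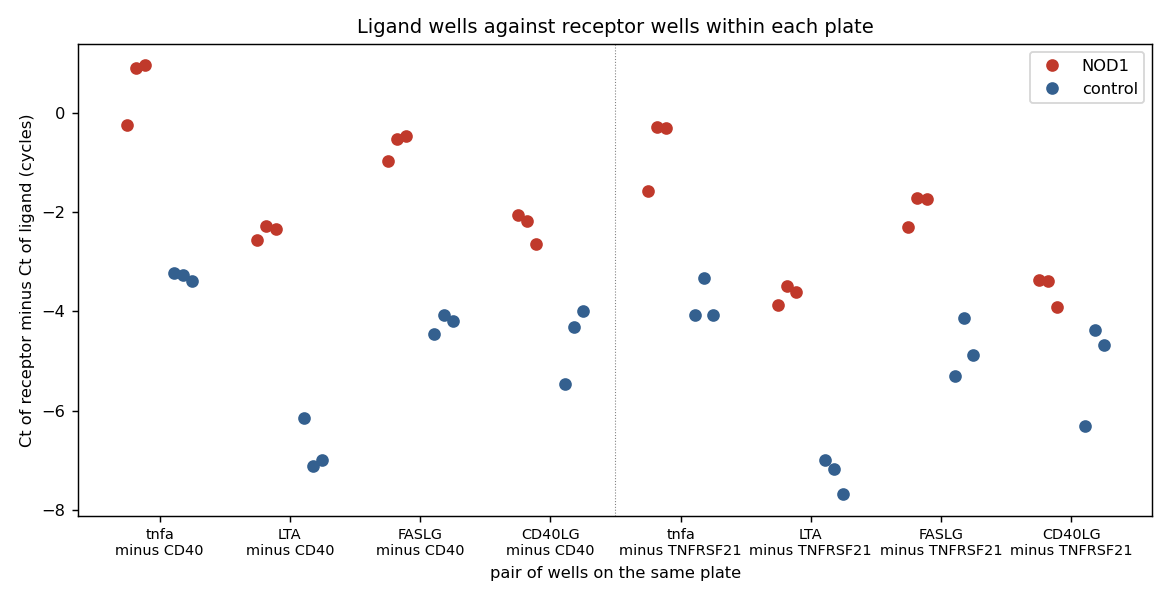
Ct of the receptor minus Ct of the ligand (cycles) on the same plate for the 8 combinations of a ligand with CD40 or TNFRSF21, each point being 1 plate, NOD1 left of control. In all 8 the NOD1 plates lie above the control plates, which follows from the levels of the single genes. The groups are farthest apart for LTA with CD40 (4.36 cycles) and closest for CD40LG with TNFRSF21 (1.56 cycles).

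The sizes have to be read beside the Ct at which each gene was detected. When the 319 genes were divided into 4 bins of 79 or 80 genes by their mean Ct over the 6 plates, the median difference was -0.10, 0.14, 0.76 and 1.42 on the log2 scale from the earliest to the latest bin. LTA, FASLG and CD40LG belonged to the latest bin, with a mean Ct of 28.95 or more, where 50 of 80 genes passed as higher and 2 as lower. The ligand tnfa and the receptor CD40 shared the next bin, where 38 of 79 genes passed as higher and 13 as lower, and they moved in opposite directions. They were not alike in Ct within each group. The mean Ct of tnfa was 27.9 in NOD1 and 29.8 in control plates, and that of CD40 28.4 and 26.5. TNFRSF21 and TRADD shared the bin before that of tnfa and CD40, with 21 of 80 higher and 19 lower. LTA, tnfa and FASLG lay above the median of their bin, CD40LG below it and CD40 and TNFRSF21 on the other side of 0 from it. The part of Ct in these differences was not tested.

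**Figure D4:**
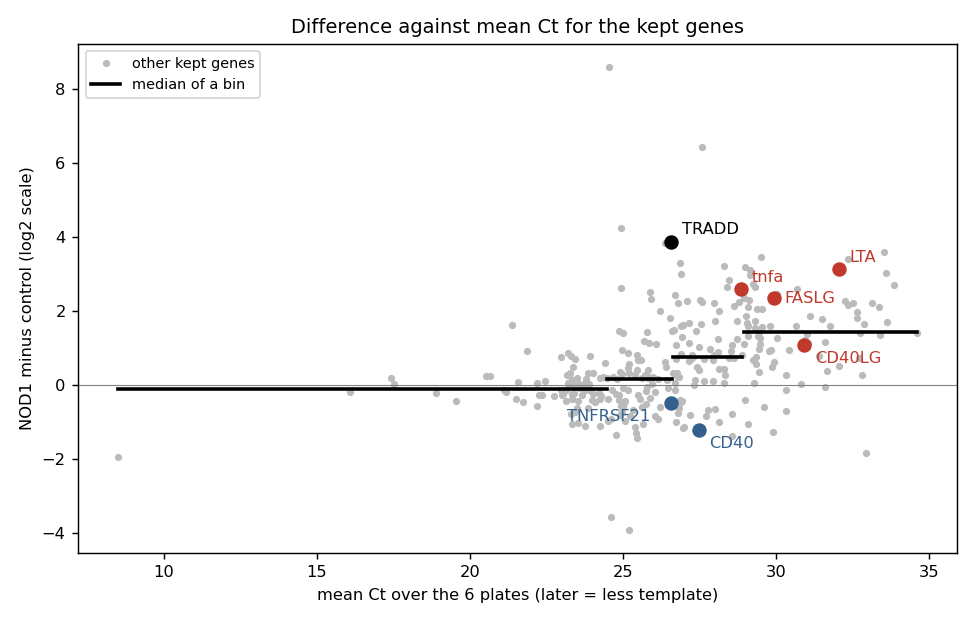
Difference of NOD1 minus control (log2 scale) against the mean Ct over the 6 plates for the genes kept, with the 7 genes named and black lines at the median of each of 4 bins by mean Ct. The medians run from -0.10 in the earliest bin to 1.42 in the latest, which holds LTA, FASLG and CD40LG, while CD40 and TNFRSF21 lie below 0 among genes of intermediate Ct.

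The scaling moved the ligands and the receptors together. Scalings by other reference genes, by the global mean or median, or on raw Ct add the same amount to every gene, and the median over ligands minus the median over receptors stayed at 3.34 under these. With quantile scaling it was 2.89 and with cyclic loess 2.66. As the median difference of all genes was -0.29 with the global mean and 0.80 with 18S rRNA added to the reference genes, the differences of the receptors were more negative and those of the ligands smaller under the first, and the reverse held under the second. LTA, FASLG and CD40 kept their direction and passed under all 10 other scalings and tnfa under 9. Against 3 higher and 2 lower among the 7 genes, 4 and 1 passed with 18S rRNA added, 3 and 1 with B2M added, GAPDH alone or Tuba1 alone, and 2 and 2 with quantile scaling. Over all genes the split of 118 higher and 49 lower became 195 and 18 when 18S rRNA was added, 76 and 140 under the global mean, and 59 and 78 under quantile scaling.

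**Figure D5:**
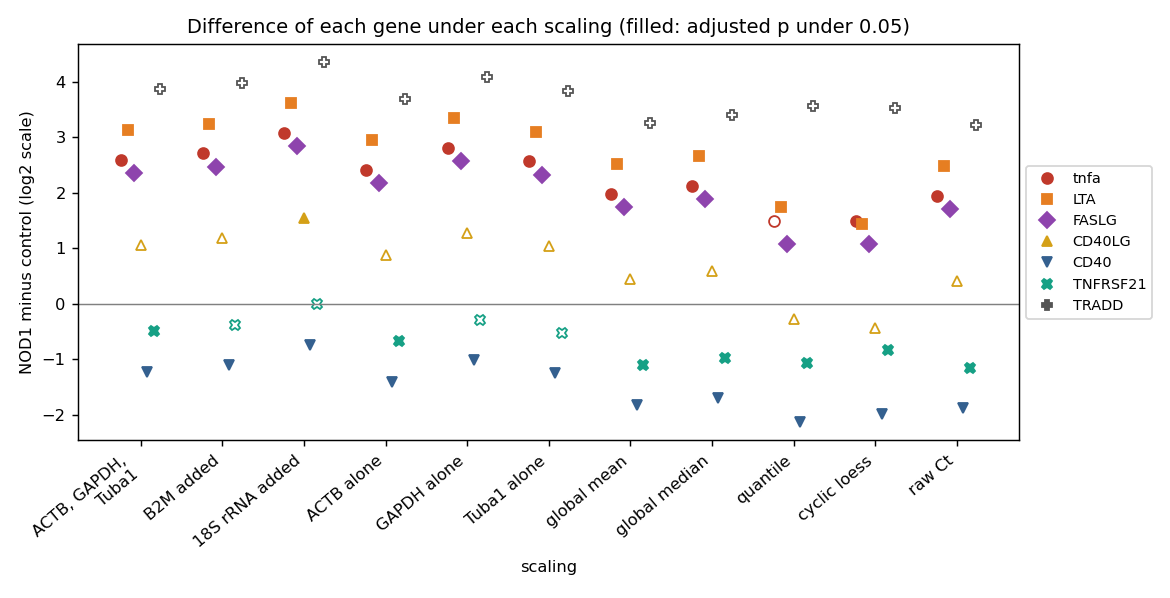
Difference of NOD1 minus control (log2 scale) for the 7 genes under the reference genes ACTB, GAPDH and Tuba1 and under the 10 other scalings, filled points having a limma adjusted p under 0.05. The points of tnfa, LTA and FASLG stay above 0 and those of CD40 below it under every scaling shown, CD40LG is below 0 with quantile (-0.27) and cyclic loess (-0.44), and TNFRSF21 reaches -0.010 with 18S rRNA added.

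Of a list of other genes of TNF signalling, 29 matched the symbol of a well and were kept. A listed gene that the plate holds under another symbol is not among them. Of the 29 genes 5 rose, 8 fell and 16 did not pass, where 37.0% of all genes passed as higher and 15.4% as lower. Their median difference was -0.096 on the log2 scale, beside 0.32 over all genes. They were detected earlier than the plate as a whole, with a median control Ct of 24.5 against 26.4. The 2 earliest bins by Ct had median differences of -0.10 and 0.14, and the part of Ct was not tested. The counts of the 29 genes moved with the scaling, to 1 higher and 22 lower with the global mean, 2 and 11 with quantile or cyclic loess, and 14 and 4 with 18S rRNA added. Leaving out 1 plate left 2 to 5 higher and 7 or 8 lower, with 2 higher without NOD1 replicate 2, NOD1 replicate 3 or control replicate 1 and 3 higher without control replicate 2 or 3.

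The 12 listed genes at and next to the receptors held 1 that rose, tnfb, and 2 that fell. That is 8.33% higher and 16.7% lower, beside 37.0% and 15.4% of all genes, so the share lower is near that of the whole plate. RIPK1, the kinase that TRADD recruits (its well maps to the zebrafish gene ripk1l), fell by 0.74 ± 0.13 (limma adjusted p = 0.00671), with levels of -7.54, -7.26 and -7.36 in NOD1 plates, against -6.75, -6.53 and -6.68 in control plates. TRAF2b, a paralog of the adaptor and ubiquitin ligase TRAF2, fell by 0.77 ± 0.15 (adjusted p = 0.00837), whereas its paralog TRAF2a was not called, at 0.22 ± 0.13 (adjusted p = 0.190). FADD, the adaptor that links death receptors to caspase-8, differed by 0.14 ± 0.14 and CASP8 by 0.57 ± 0.28, and neither passed (adjusted p = 0.426 and 0.143). RIPK1 and TRAF2b did not pass with 18S rRNA added to the reference genes. With it 14 of the 29 listed genes passed as higher in place of 5, so genes given here as not passing may depend on the scaling.

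Of the 8 listed genes of the NF-kB branch, 3 rose, 1 fell and 4 did not pass, shares of 37.5% higher and 12.5% lower that lie near the 37.0% and 15.4% of all genes. BCL3, a nuclear IkB protein, rose by 1.29 ± 0.35 (limma adjusted p = 0.0243), and NFKBIA, the inhibitor that NF-kB itself induces, rose by 0.85 ± 0.17 (adjusted p = 0.00846). The NFKBIA well maps to the zebrafish gene nfkbiab. NFKB1 rose by 0.56 ± 0.17 (adjusted p = 0.0390), and IKBKG, the regulatory subunit of the IkB kinase complex, fell by 0.42 ± 0.14 (adjusted p = 0.0455). The BCL3 and NFKB1 calls held in only 2 of 6 fits with a plate left out, and the IKBKG call in 1, while that of NFKBIA held in all 6. BCL3 was lost without NOD1 replicate 2 or 3 or control replicate 1 or 3, NFKB1 without NOD1 replicate 2 or 3 or control replicate 1 or 2, and IKBKG without any plate except NOD1 replicate 2. NFKB1 had the opposite sign under 4 of the 10 other scalings, down to -0.67 on the log2 scale, and passed in that direction under 2. IKBKG was 0.070 with 18S rRNA added. BCL3 did not pass under 5 and NFKBIA under 3 of the other scalings.

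Of 6 listed genes of the JNK branch, 0 rose, 3 fell and 3 did not pass, beside 37.0% of all genes higher and 15.4% lower. Both paralogs of caspase-3 fell. The 3 that did not pass were MAPK8 (0.091 ± 0.15), MAP2K4 (-0.235 ± 0.13) and JUN (-0.238 ± 0.15; limma adjusted p = 0.622, 0.183 and 0.232). The wells of MAPK8 and MAP2K4 map to the zebrafish genes mapk8b and map2k4a. The JNK-family kinase MAPK10 fell by 1.31 ± 0.22 (limma adjusted p = 0.00485) and MAPK9, another, fell by 0.84 ± 0.16 (adjusted p = 0.00846). MAP2K7, the kinase that activates JNK downstream of TNF, fell by 0.82 ± 0.13 (adjusted p = 0.00451). CASP3a, a paralog of caspase-3, fell by 1.11 ± 0.13 (adjusted p = 0.00178) and its partner CASP3b fell by 1.13 ± 0.14 (adjusted p = 0.00184). CASP3a had levels of -6.88, -7.01 and -6.70 in NOD1 plates, against -5.84, -5.79 and -5.64 in control plates, with no overlap. The calls of MAPK10, MAP2K7, CASP3a and CASP3b passed with each plate left out and under all 10 other scalings, and that of MAPK9 under all except 18S rRNA added.

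Of 31 listed markers of myeloid, lymphoid and other blood cells that could supply these transcripts, the plate held 4, with a mean Ct of 24.0 to 27.9 in NOD1 plates and 23.7 to 26.0 in control plates. SPI1, a myeloid transcription factor, rose by 0.81 ± 0.19 (limma adjusted p = 0.0146). This rise rested on the scaling, since its raw Ct overlapped between the groups and was earlier in NOD1 by only 0.158 cycles. CSF1R, the macrophage growth factor receptor, fell by 1.17 ± 0.16 (adjusted p = 0.00271). EPOR, the erythropoietin receptor, fell by 1.01 ± 0.16 (adjusted p = 0.00411). On raw Ct these 2 genes were later in NOD1 by 1.82 and 1.67 cycles. GATA3, the only listed lymphoid marker measured, was not called, at 0.32 ± 0.15 (adjusted p = 0.138). Since lymphocytes appear only later than this stage, its level cannot be read as a measure of lymphoid cells. The part of the 4 markers in the differences of the TNF superfamily genes was not tested.

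The genes whose levels over the 6 plates were most like those of each gene are given as a description, since all share the reference genes and the split between the groups. For tnfa they were IL21RL, SOCS4 and BCL3 (Pearson r = 0.993, 0.993 and 0.989, n = 6 plates), and for FASLG they were SOCS4, IL22 and MAP2K2b (r = 0.996, 0.992 and 0.991). For LTA they were CCR7, nod1 and LGP2 (r = 0.992, 0.991 and 0.990). For CD40 they were TRAF2b, ARAF and RIPK1 (r = 0.990, 0.988 and 0.988), and for TNFRSF21 they were RELA, CASP2 and INSRb (r = 0.964, 0.953 and 0.953). For CD40LG, JAK1, CCL-C25y-like and IL-15RA were closest (r = 0.951, 0.905 and 0.888). In control replicate 1 JAK1 was at the ceiling of 35, 12.2 cycles later than the next control plate. CD40LG was later there by 1.64 cycles than the mean of the other control plates. For TRADD, IFI27, CRFB6 and C4-2 were closest (r = 0.942, 0.937 and 0.883), and its pattern rests on the late well of control replicate 3.

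In the authors' deposited table the NOD1 over control fold was 6.04 for tnfa, 8.77 for LTA, 5.12 for FASLG and 2.09 for CD40LG, 0.428 for CD40, 0.708 for TNFRSF21 and 14.6 for TRADD. The p-values of the authors' deposited table, which carry no adjustment, were 0.129 for CD40LG, 0.237 for TRADD and 0.0332 for TNFRSF21. That table gives TRADD the largest fold of the 7 genes, and the control mean behind it includes the well at a Ct of 33.6.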

How the data were processed

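The plate files held raw Ct values, not normalized, taken, per the file headers, where fluorescence crossed a manual threshold of 0.2. The deposited comparison table held, per the file headers, a log2-like delta Ct per group (gene minus average of housekeeping genes), the ratio or fold of NOD1 over control, a p-value deposited by the authors, and a signed fold score deposited by the authors. Its delta Ct and p-values were the same as those recomputed from the plates for all 326 genes (within 1e-06 cycles and a relative 1e-04; equal-variance test, Ct over 35 set to 35).

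Here Ct values over 35 or undetermined were set to 35, and the 319 of 326 genes kept had a Ct below 35 in every plate of NOD1, of control or of both. Levels relative to ACTB, GAPDH and Tuba1 were compared with limma 3.58.1 in R 4.3.3 (lmFit, eBayes, two-sided, Benjamini-Hochberg adjusted over 319 genes). The same fit was run on simulated data with independent noise for each gene and plate and as many genes raised as lowered. Those data held no run days and no noise shared through the reference genes, so they could not check the fit on these points. Intervals are 95% confidence intervals of the limma fit, and 3 plates a group limit the precision. The run day as a random block was an alternative chosen after seeing the data. The genes and lists were chosen with earlier results of these data known. All 7 genes of the set are named, with the called genes of the pathway list, FADD and CASP8, and the 3 most alike genes each; other genes were named after their values were seen. Of these, 1 gene is not reported here.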

Additional observations from a re-analysis of the deposited data

How the results depend on the processing

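Each gene was refitted under 24 alternatives. Some of these could not change the differences of the set. The raised ceiling, late values set as missing, no filter and the stricter filter left its Ct values as they were. The trend and robust fit, the equal-variance test per gene and the replicate block keep the differences by construction. In all of these only the adjusted p could move. Direction could change only under the 10 other scalings, the 6 fits with a plate left out and the run day block. LTA, FASLG and CD40 kept direction and call in all 24 and tnfa in 23 (quantile scaling, adjusted p = 0.0839). TNFRSF21 kept its call in 13, and the 11 losses leave 1 lower gene of the set in place of 2 (B2M added, 18S rRNA added, GAPDH alone, Tuba1 alone, the equal-variance test per gene, the replicate block and 5 of the fits with a plate left out, whose lower genes ranged from 1 to 2). CD40LG differed by -0.27 with quantile and -0.44 with cyclic loess scaling. The higher genes of the set numbered 2 to 4 over all alternatives.

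Over all genes, 118 higher and 49 lower became 76 and 140 with the global mean, 81 and 113 with the global median, 59 and 78 with quantile, 66 and 72 with cyclic loess, 71 and 134 on raw Ct, 195 and 18 with 18S rRNA added, 102 and 72 with ACTB alone and 127 and 26 with GAPDH alone. With a plate left out they ranged from 95 to 115 higher and from 31 to 45 lower, the fewest lower being 31 without control replicate 1 and 32 without control replicate 3. For the TNF signalling list, 5 higher and 8 lower became 1 and 22 (global mean), 1 and 20 (global median), 1 and 21 (raw Ct), 2 and 11 (quantile or cyclic loess), 14 and 4 (18S rRNA added), 3 and 12 (ACTB alone) and 3 and 8 (equal-variance test per gene), and 2 to 5 higher and 7 to 8 lower with a plate left out. Ligands against receptors moved from 3.34 to 2.89 (quantile) and 2.66 (cyclic loess), and CD40LG minus CD40 ranged from 1.85 to 2.59 cycles with a plate left out.

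Same-numbered plates did not deviate together over the genes kept (r = 0.113, 0.031 and -0.022). The labels do not say whether these plates are paired, and such values cannot decide it. The replicate block gave 111 higher and 40 lower genes, with TNFRSF21 lost (adjusted p = 0.0820) and no other call of the 7 genes changed, and CD40LG minus CD40 was 2.29. The run day as a random block gave 141 higher and 71 lower genes, with an estimated correlation of -0.335, and changed no call of the 7. No day held plates of both groups, so this fit could not separate run day from group and is no check on run day. With the negative correlation the limma adjusted p of TNFRSF21 went from 0.0467 to 0.00839. Late Ct, with 1 well per gene and plate, limits what can be said of LTA, FASLG, CD40LG and FAS. The single late well of control replicate 3 limits what can be said of TRADD.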
